A study of Mus musculus with 9 samples.

Results

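Cholesterol synthesis in the mouse testis was followed through 7 genes of the pathway, Hmgcs1, Idi1, Fdps, Sqle, Lss, Cyp51 and Dhcr7, which were taken by symbol and are 7 of the 32285 genes counted in each library. Whole testes of 9 C57BL/6 mice at PND24 gave 1 droplet-based single cell RNA-seq library each: 4 control (littermates and non-littermates), 2 NELF-B cKO and 3 TDP-43 cKO. A cKO mouse carried 1 null and 1 floxed copy of Nelfb (its first 4 exons floxed) or of Tardbp (an internal exon floxed), and Stra8-iCre, a transgene whose recombinase acts in male germ cells from spermatogonia (SG) on. Somatic cells, Leydig cells among them, therefore kept a floxed copy beside the null copy, and a change in them is not a test of full loss of the gene. NELF-B is a subunit of the negative elongation factor, which holds RNA polymerase II near the promoter, and TDP-43, the product of Tardbp, is a DNA- and RNA-binding protein.

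Cells build cholesterol from acetyl-CoA by way of mevalonate, isoprenoids, squalene and lanosterol, and the genes of the pathway are switched on together by the SREBP factors when sterols in the membrane run low. In the testis, Leydig cells turn cholesterol into testosterone. Germ cells need sterols for their membranes, and intermediates of the pathway that act on meiosis are known as meiosis-activating sterols. Of the 7 enzymes, the product of Hmgcs1 joins acetoacetyl-CoA to acetyl-CoA on the way to mevalonate. Idi1 and Fdps encode enzymes of the isoprenoid steps. Sqle and Lss encode the enzymes that make squalene epoxide and close it to lanosterol. Cyp51 encodes the lanosterol demethylase, whose product is a meiosis-activating sterol, and Dhcr7 encodes a reductase that acts at the end of the pathway.

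In GRCm38 coordinates, Hmgcs1 lies on the plus strand at chr13:119690379-119708260 and Idi1 on the plus strand at chr13:8885501-8892451. Fdps lies on the minus strand at chr3:89093588-89101959, Sqle on the plus strand at chr15:59315077-59331192 and Lss on the plus strand at chr10:76531588-76557138. Cyp51 lies on the minus strand at chr5:4081145-4104746 and Dhcr7 on the plus strand at chr7:143823145-143848410. The annotation places the gene model Gm43738 on the same strand as Fdps, so UMIs of the overlapping stretch could be lost or assigned to either gene. It also places the 3′ end of Akap9 over Cyp51. What either overlap does to the counts was not tested.

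RefSeq promoters of 5 of the 7 genes were at hand (GRCm38.p6), and 3 are printed because their genes took different courses through spermatogenesis: Hmgcs1, Cyp51 and Lss. Each stretch is given 5′ to 3′ on the strand of its gene, with 4 motifs in capitals wherever they occur on either strand: the sterol regulatory element TCACNCCAC, to which SREBP factors bind, the CCAAT box, the GC box GGGCGG and TGACG, the core of the cAMP response element. The Hmgcs1 stretch is chr13:119690101-119690350 and ends at the base before the RefSeq start. The Cyp51 stretch is chr5:4104747-4104947, minus strand, and the Lss stretch is chr10:76531355-76531587.
Hmgcs1: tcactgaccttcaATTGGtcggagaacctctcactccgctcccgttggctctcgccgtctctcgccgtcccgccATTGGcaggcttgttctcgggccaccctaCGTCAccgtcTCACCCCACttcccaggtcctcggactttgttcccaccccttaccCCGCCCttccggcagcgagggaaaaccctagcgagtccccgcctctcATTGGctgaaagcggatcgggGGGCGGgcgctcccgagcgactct
Cyp51: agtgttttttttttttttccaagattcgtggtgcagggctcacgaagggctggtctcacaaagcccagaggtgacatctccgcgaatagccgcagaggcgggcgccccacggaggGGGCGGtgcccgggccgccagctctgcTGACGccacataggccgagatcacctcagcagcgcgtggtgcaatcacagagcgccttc
Lss: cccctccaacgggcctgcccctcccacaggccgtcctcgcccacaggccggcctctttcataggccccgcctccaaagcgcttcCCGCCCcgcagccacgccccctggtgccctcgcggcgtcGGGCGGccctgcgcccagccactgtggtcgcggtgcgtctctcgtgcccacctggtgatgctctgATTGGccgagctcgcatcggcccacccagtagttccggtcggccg
The sterol element was found in the Hmgcs1 promoter, as TCACCCCAC starting 137 bases before the start, and in 1.05% of the 32851 RefSeq promoters of the same window. Hmgcs1 also held 3 CCAAT boxes, 2 GC boxes and 1 TGACG. In Cyp51, TGACG lay 108 bases before the RefSeq start and a GC box 135 bases before it, and 1 CCAAT box lay closer to the start than the stretch printed. Lss held 1 CCAAT box and 2 GC boxes. The promoter of Idi1 held 2 CCAAT boxes and 1 GC box, and the promoters at the RefSeq starts of Dhcr7 together held 2 CCAAT boxes and 4 GC boxes. Across all promoters, 33.8% held a CCAAT box, 32.7% a GC box and 17.8% TGACG. A match is a description of these letters and not evidence that a factor binds.

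The libraries held 119203347 to 159407373 UMIs, and 37.5% to 78.3% of them lay in the 2982 to 8457 barcodes per mouse that passed the filter on genes and mitochondrial UMIs. The median UMIs of such a barcode were 1754 to 6369 in control mice. They were 5165 and 17312.5 in NELF-B cKO mice 1 and 2 and 14117 to 19254 in TDP-43 cKO mice. Apart from NELF-B cKO 1, depth ran with genotype, and their parts in the genotype comparisons cannot be told apart. Of 45132 such barcodes, 26807 fell in clusters that were given a cell type from marker genes, so that "Leydig cells" below stands for cells of a Leydig-like cluster, and likewise for the other types. Leptotene cells formed no cluster of their own. Preleptotene (pL) and zygotene (Z) spermatocytes (SC) were summed as early SC, and pachytene (P) SC, diplotene (D) SC and round spermatids (RS) were summed apart. Germ cells of a cKO mouse in which the targeted gene had any UMI were dropped, a step taken from the study's methods. This dropped 3214 cells and left 23593. The cells dropped were 144 and 66 in NELF-B cKO mice 1 and 2, 695, 1069 and 1240 in TDP-43 cKO mice 1 to 3, and 0 in control mice. The germ cells of cKO mice were thus selected by a rule that control germ cells were not. Any pair of libraries shared 1 to 24 barcodes. Before that step, Nelfb in SG and early SC stood at 60.8 to 74.1 CPM in control mice and at 4.28 and 4.99 CPM in NELF-B cKO mice, and Tardbp stood at 114.5 to 144.9 CPM in control mice and at 34.2, 49.6 and 53.0 CPM in TDP-43 cKO mice, so both targeted genes were lower in their cKO mice. UMIs are counted at the 3′ end of the transcript, outside the deleted exon of Tardbp, which makes that check the weaker one.

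Levels are in CPM, the UMIs of a gene in the sum of 1 mouse and 1 cell type, scaled to the same total for every sum. A level is thus a share of the UMIs of a cell type and not an amount per cell. Sums of at least 10 cells were used. Log2 fold changes, their standard errors (SE) and p-values come from edgeR's quasi-likelihood test on these sums after TMM scaling, which shifts whole cell types against each other, so that a fold change can differ from the ratio of the CPM values. A gene was called at a Benjamini-Hochberg adjusted p under 0.05 over all genes tested.

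In control mice, all 7 genes had their highest CPM in Leydig cells, in which none of the values overlapped with those of the next cell type. Leydig cells were not tested against RS. For Idi1, Sqle and Cyp51, with RS next, the order is thus one of CPM, without TMM scaling. In edgeR's fit, Idi1 moved by log2 0.01 from SG to early SC, then by 0.17 to P SC and by 2.16 to RS. Leydig cells against SG gave 2.05, so that after TMM scaling Idi1 lay higher in RS than in Leydig cells. For Sqle the steps were -0.17, 0.62 and 1.38 against 1.79, which put both types about level. For Cyp51 they were -0.62, -1.31 and 4.02 against 2.83, with Leydig cells still above RS. The cluster carried the Leydig markers: Hsd3b6, Cyp11a1, Insl3, Cyp17a1, Hsd3b1 and Star together stood at 6548 to 9783 CPM in control Leydig cells and at 0 to 95.9 CPM in the other cell types. Hmgcs1 reached 473, 788, 501.3 and 509.7 CPM in the Leydig cells of control mice 1 to 4, against 72.3 to 80.8 CPM in SG and 82.2 to 124.3 CPM in Sertoli cells. Control 2 stood above the other mice.
Idi1 stood at 182, 251.2, 220.6 and 174.2 CPM in Leydig cells, and its nearest type was RS at 136.3 to 165.7 CPM. Fdps, the farnesyl diphosphate synthase, stood at 736.5, 578.9, 539.4 and 581.8 CPM, against 185.5 to 209 CPM in SG. Leydig cells of every control mouse lay above these neighbours.
Sqle stood at 115.9, 140.4, 126.3 and 96.7 CPM in Leydig cells and at 61.8 to 81.0 CPM in RS. Lss was lower in all types, with 53.8, 41.3, 38.6 and 40.1 CPM in Leydig cells and 19.3 to 21.5 CPM in SG, and with no UMI in the 3 endothelial sums. For both genes the Leydig cells of every control mouse lay above every other control sum.
Cyp51 stood at 259.3, 266.1, 235.6 and 214.3 CPM in Leydig cells, ahead of RS at 47.6 to 113.8 CPM. Dhcr7 stood at 118.6, 88.5, 60.7 and 83.9 CPM, ahead of SG at 28.2 to 33.8 CPM.

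**Figure D1:**
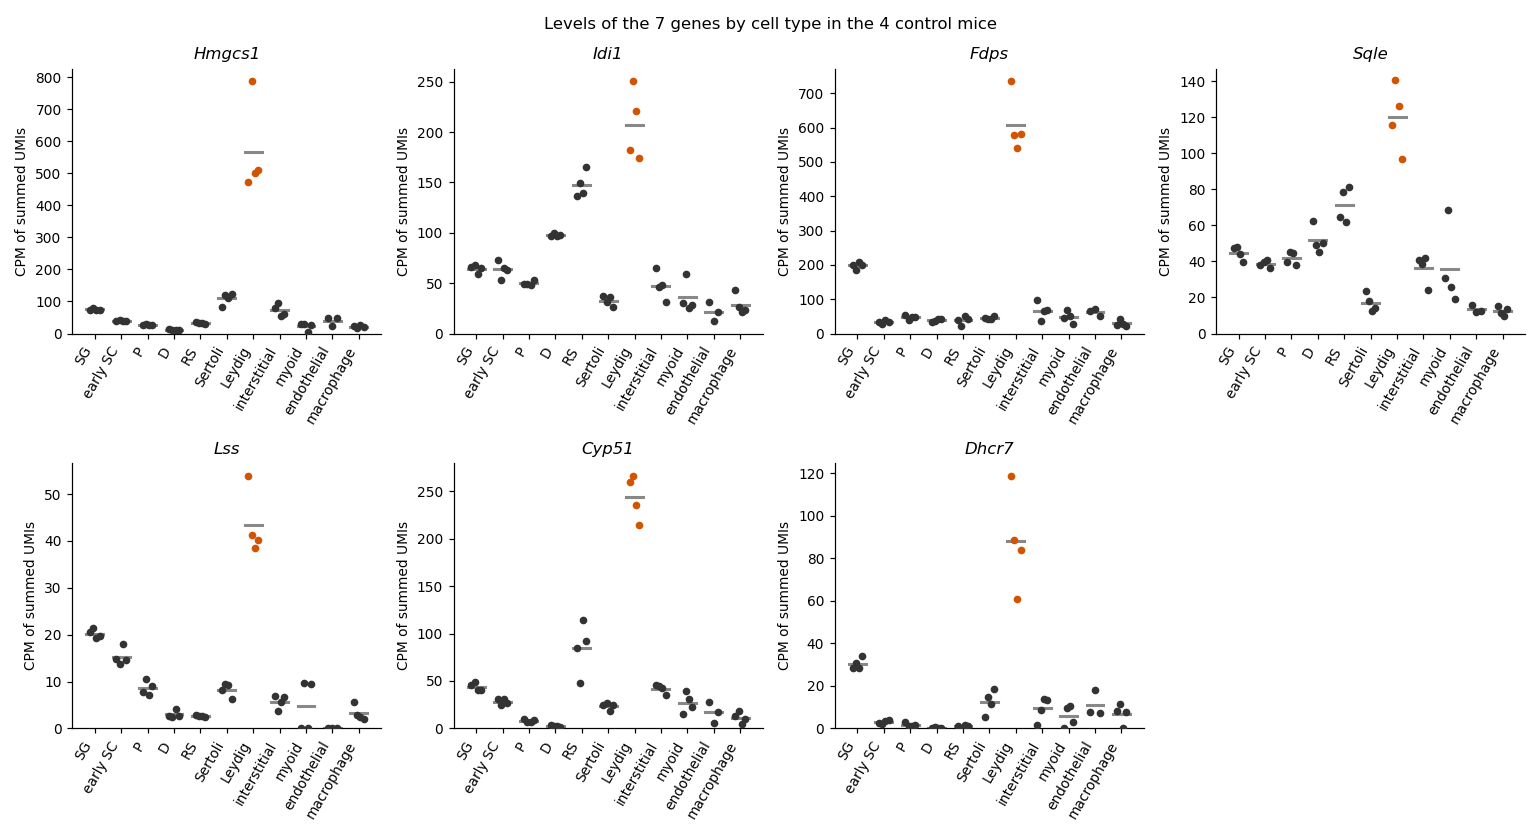
Each panel plots 1 gene, with the CPM of summed UMIs on the y axis and 11 cell types on the x axis; a point is 1 control mouse and the grey bar the mean of the mice. The Leydig points, in orange, lie above all others in each panel, from Hmgcs1 (473 to 788 CPM) to Lss (38.6 to 53.8 CPM).

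The same order held within every mouse of the 3 genotypes. By CPM, Leydig cells were highest for each of the 7 genes in 9 of 9 mice. The ratio of the Leydig level to the next type of the same mouse was 4.09 to 6.57 for Hmgcs1, with Sertoli cells next in all 9 mice, and 2.37 to 4.90 for Fdps, with SG next in all 9. It was 2.07 to 7.03 for Cyp51, 2.12 to 4.36 for Dhcr7 and 1.92 to 2.62 for Lss. The narrowest ratios were those of Sqle, 1.19 to 2.88, and Idi1, 1.05 to 3.87, for which RS came next in 6 and 7 of the mice. NELF-B cKO 2 and TDP-43 cKO 1 had fewer than 10 RS cells, so RS could not come next there, and over the other 7 mice the ratio was 1.05 to 1.81 for Idi1 and 2.07 to 5.39 for Cyp51.

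Below the Leydig cells the order of the types differed from gene to gene, as the plot of levels by cell type shows. For Hmgcs1, Sertoli cells came next (109.7 ± 19.0 CPM, SD, n = 4), and SG (75.3 ± 3.83 CPM) and interstitial cells (73.0 ± 17.8 CPM), a cluster marked by Pdgfra, Dcn and Tcf21, overlapped. Early SC (40.3 ± 2.12 CPM), endothelial cells (40.2 ± 14.1 CPM, n = 3) and RS (32.7 ± 2.67 CPM) followed and overlapped in this order, apart from the types above. P SC, myoid cells and macrophages, between 21.4 and 27.7 CPM, overlapped in this order too, with P SC below RS without overlap. D SC were lowest at 11.5 ± 0.889 CPM, apart from macrophages.
For Idi1 and Sqle, the types after Leydig cells were RS and then D SC. For Idi1 these steps did not overlap (147.7 ± 13.3 CPM in RS and 97.8 ± 1.41 CPM in D SC), whereas all steps of Sqle below Leydig cells did, down to macrophages at 12.6 ± 2.58 CPM. Sertoli cells were low for both, at 32.8 ± 4.87 CPM for Idi1 and 17.1 ± 5.11 CPM for Sqle.
Fdps, Dhcr7 and Lss had SG second, at 198.6 ± 9.74, 30.3 ± 2.58 and 20.2 ± 0.982 CPM. In each case SG did not overlap with the type that followed, which was interstitial cells for Fdps (66.9 ± 24.4 CPM), Sertoli cells for Dhcr7 (12.6 ± 5.59 CPM) and early SC for Lss (15.2 ± 1.89 CPM). The remaining types of Fdps, from interstitial cells to macrophages at 29.3 ± 9.73 CPM, formed an unbroken run of overlapping neighbours. For Cyp51, RS (84.7 ± 27.6 CPM) and then SG (44.0 ± 4.40 CPM) came after Leydig cells and overlapped, and D SC last at 2.77 ± 0.892 CPM.

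Free RNA can add to the low values. Barcodes of 1 to 100 UMIs, taken as free RNA, held 2.61 to 7.69 CPM of Dhcr7, 5.52 to 9.93 CPM of Lss, 16.01 to 32.4 CPM of Cyp51 and 27.6 to 39.7 CPM of Hmgcs1 in control mice. In control mice, free RNA was estimated to make up a median of 18.7% of the UMIs of P SC, 8.96% of D SC, 9.95% of RS, 13.1% of Sertoli cells and 6.07% of Leydig cells. For P SC, D SC and RS this estimate rested on the 6 Leydig markers alone. Star, which other testis cell types also express, was among them. In the P SC of 7 mice Star stood at 8.56 to 14.7 CPM, while Hsd3b1 stood at 0 to 3.56 CPM. Star made by these cells would raise the estimate, and its part was not tested. The values of Sqle, Idi1 and Fdps in the free RNA barcodes of control mice were 47.5 to 53.7, 73.7 to 114.1 and 63.5 to 68.0 CPM. Leydig cells lay above these ranges in every control mouse for all 7 genes, as did SG for Hmgcs1, Fdps, Lss, Cyp51 and Dhcr7, RS for Sqle, Idi1 and Cyp51, Sertoli cells for Hmgcs1, early SC for Lss, and interstitial cells for Hmgcs1 and Cyp51. The other types had at least 1 control mouse within or below the range, and some also had mice above it, such as Hmgcs1 in early SC (38.4 to 43.3 CPM), Dhcr7 in Sertoli cells (5.48 to 18.6 CPM) and Fdps in interstitial cells (37.5 to 97.1 CPM). Every control mouse with a sum was below the range for Idi1 in SG, early SC, P SC, Sertoli, interstitial, myoid, endothelial cells and macrophages, for Fdps in early SC, P SC, D SC, RS, Sertoli cells and macrophages, and for Sqle in early SC, P SC, Sertoli, interstitial, endothelial cells and macrophages. The same held for Hmgcs1 in D SC and macrophages, Cyp51 in P SC and D SC, Dhcr7 in D SC and RS, and Lss in D SC, RS and endothelial cells. The range is the level within free RNA. What free RNA adds to a sum also depends on its share of the UMIs, so the range is not a floor. For levels within or below it, this comparison does not tell expression from free RNA. Differences between such levels are given as differences in the share of UMIs.

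Against SG, all 7 genes were called higher in control Leydig cells, where 25.7% of the 19609 genes tested were called higher. The log2 fold change was 3.26 (SE 0.14) for Hmgcs1, 2.05 (SE 0.15) for Idi1, 1.98 (SE 0.16) for Fdps, 1.79 (SE 0.14) for Sqle, 1.47 (SE 0.19) for Lss, 2.83 (SE 0.18) for Cyp51 and 1.90 (SE 0.25) for Dhcr7. The adjusted p of edgeR ranged from 5.638e-24 for Hmgcs1 to 9.52e-09 for Lss. The median of the 7 genes was 1.98, beside -0.21 over all genes tested.
Against Sertoli cells, the somatic cells that nurse the germ cells, all 7 were again called higher, where 24.1% of genes were. The differences ran from 2.78 on the log2 scale for Hmgcs1 to 4.18 for Fdps, with a median of 3.14 beside -0.18 over all genes, and the highest adjusted p of edgeR was 7.076e-13, for Dhcr7.
Against interstitial cells, which share the space between the tubules with Leydig cells, the 7 genes were called higher as well, where 13.9% of genes were. The log2 fold changes were 3.14 for Hmgcs1, 2.34 for Idi1, 3.45 for Fdps, 1.95 for Sqle, 3.23 for Lss, 2.75 for Cyp51 and 3.58 for Dhcr7, with a median of 3.14 beside 0.01 over all genes. Each of these 21 calls was also made in all 13 alternative fits and at the study's stricter threshold. The study set that threshold for shrunken fold changes between genotypes, and here it was put on edgeR's fold changes, between cell types too. The genes of the pathway had been left out of the clustering, but genes that vary with them were not, so the cell types are not fully independent of the levels.

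Most other enzymes of the pathway went the same way. Of 14 other synthesis enzymes, 12 were called higher and 1 lower in Leydig cells than in SG (median log2 fold change 2.48), 12 higher and 0 lower than in Sertoli cells (median 2.34) and 13 higher and 0 lower than in interstitial cells (median 2.39). Sc5d, the lathosterol oxidase, stood at 284.9 CPM in Leydig cells against 29.9 CPM in SG, 13.7 CPM in Sertoli cells and 15.6 CPM in interstitial cells (means of control mice), and Msmo1, a sterol methyl oxidase, at 306.2 CPM against 33.4, 49.3 and 35.1 CPM. Pmvk, a kinase of the mevalonate steps, stood at 74.7 CPM against 12.97 CPM in SG (log2 fold change 2.89, SE 0.17), and Nsdhl at 108.2 CPM against 18.5 CPM in Sertoli cells and 13.3 CPM in interstitial cells. The enzyme called lower than in SG was Lbr.
Among 10 genes of cholesterol uptake, storage and export, 8 were called higher and 1 lower than in SG (median 1.46), 7 higher and 1 lower than in Sertoli cells (median 1.22), and 5 higher and 0 lower than in interstitial cells (median 1.16). Soat1, which makes cholesterol esters for storage, stood at 533.4 CPM in Leydig cells against 23.7 CPM in SG (4.85, SE 0.16) and 50.0 CPM in interstitial cells (3.62, SE 0.19). Abca1, which exports cholesterol, stood at 657.8 CPM against 44.1 CPM in SG (4.25, SE 0.18) and 55.6 CPM in Sertoli cells (3.97, SE 0.19), and the cholesterol carrier Stard4 at 44.6 CPM against 6.14 CPM in Sertoli cells.
The genes of sterol sensing and control were mixed: of 10, 2 were called higher and 3 lower than in SG, 4 higher and 3 lower than in Sertoli cells, and 3 higher and 2 lower than in interstitial cells, with medians of -0.04, 0.44 and 0.51. Insig1, which retains the SREBP factors in the ER and is itself one of their targets, was called higher in all 3 comparisons, and Srebf2, which encodes the main SREBP of the pathway, was called higher than in Sertoli and interstitial cells.

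**Figure D2:**
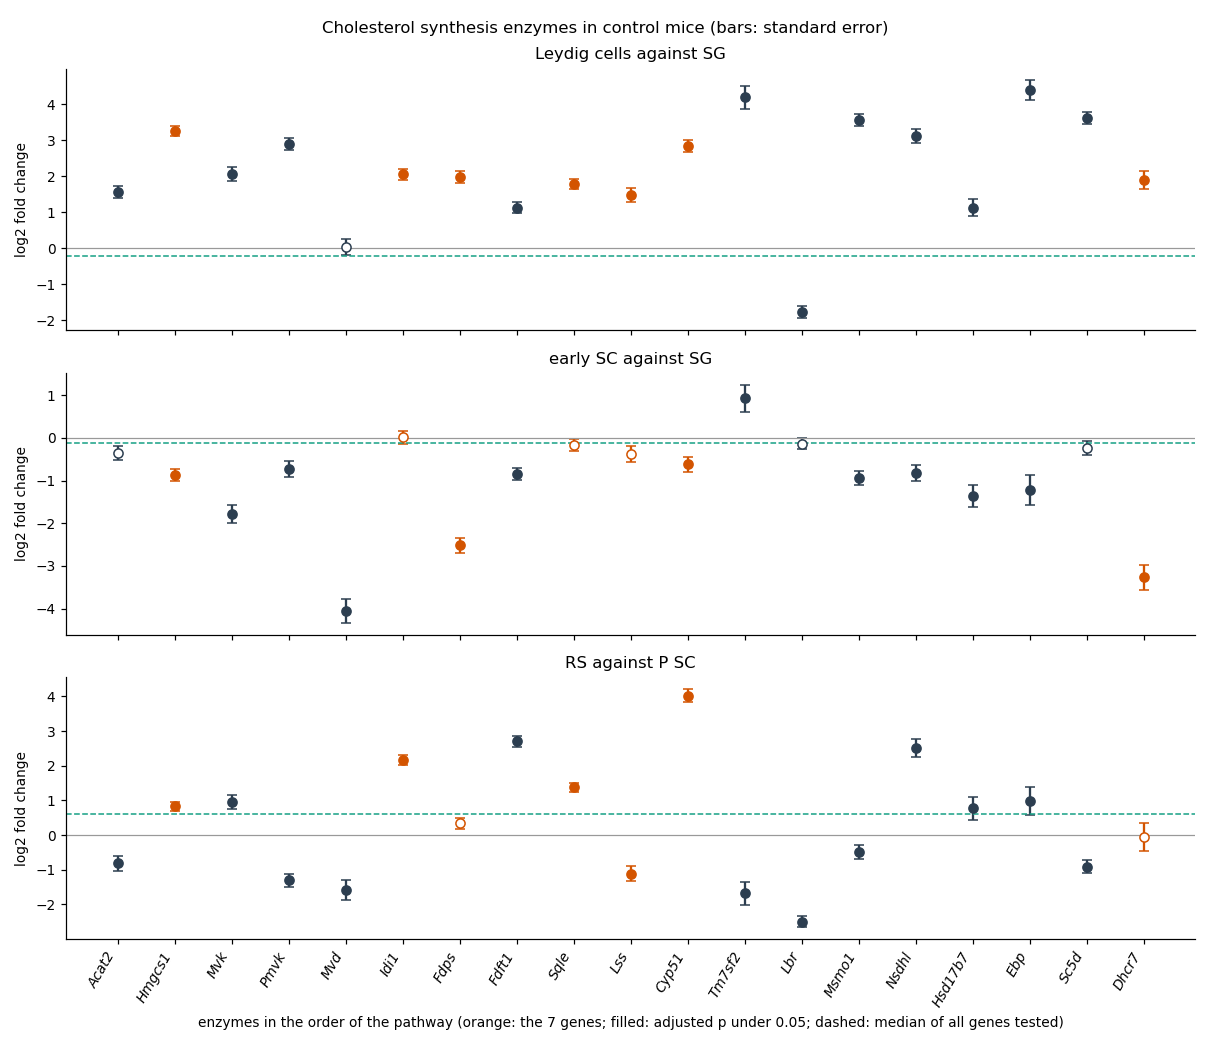
The log2 fold changes (y axis) of 19 of the 21 synthesis enzymes of the lists, in the order of the pathway on the x axis, are shown for 3 comparisons in control mice, with bars for 1 SE, orange for the 7 genes and filled points for adjusted p under 0.05; the dashed line is the median of all genes tested. In Leydig cells against SG, all orange points lie between 1.47 and 3.26, while in RS against P SC the orange points run from -1.11 for Lss to 4.02 for Cyp51.

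The germ cells entered meiosis with lower levels of some of the genes and not of others. Dhcr7 had 28.2, 30.6, 28.5 and 33.8 CPM in the SG of control mice 1 to 4 and 2.52, 1.99, 3.49 and 3.92 CPM in their early SC, and Fdps had 199.1, 185.5, 209 and 200.8 CPM in SG and 34.6, 28.0, 40.6 and 33.0 CPM in early SC. For both genes the ranges were far apart. Hmgcs1 went from 73.1, 80.8, 72.3 and 74.9 CPM to 40.0, 43.3, 38.4 and 39.7 CPM, and Cyp51 from 45.8, 49.3, 40.1 and 40.6 CPM to 30.6, 25.0, 30.5 and 26.4 CPM, again with no overlap.
These 4 genes were called lower in early SC than in SG, where 33.6% of genes were called lower. The log2 fold change was -3.27 (SE 0.30, adjusted p of edgeR 1.447e-12) for Dhcr7, -2.52 (SE 0.17, 4.699e-16) for Fdps, -0.87 (SE 0.13, 4.326e-07) for Hmgcs1 and -0.62 (SE 0.18, 0.002817) for Cyp51. Idi1 (63.7 ± 8.33 CPM in early SC and 64.4 ± 3.54 CPM in SG) and Sqle (38.7 ± 1.95 and 44.7 ± 3.91 CPM) overlapped between the types and were not called, with differences of 0.01 (95% interval -0.28 to 0.30) and -0.17 (95% interval -0.45 to 0.11). Lss did not overlap (13.6 to 17.96 CPM against 19.3 to 21.5 CPM), yet its difference of -0.37 (SE 0.19) had an adjusted p of 0.0906 with edgeR. It was called lower by DESeq2 (-0.45, adjusted p 0.0127), with edgeR under RLE scaling (-0.45, 0.0342) and with clusters at a resolution of 1.4 (-0.47, 0.0392). Idi1, Sqle and Fdps in early SC lay below the range of free RNA. Over the 7 genes the median was -0.62, beside -0.13 over all genes. The call of Cyp51 was lost when free RNA was subtracted and with clusters at a resolution of 1.4, where the log2 fold change of Dhcr7 was -2.07 (SE 0.25).
Within early SC the genes did not stand at 1 level. Idi1 was at 116.9, 98.1, 97.2 and 110.1 CPM in pL cells of the control mice, above its SG values, and at 51.3, 35.9, 40.7 and 43.0 CPM in Z cells. Cyp51 was at 43.3 ± 5.21 CPM in pL and 20.6 ± 5.13 CPM in Z cells, and Fdps at 44.9 ± 8.03 and 28.2 ± 3.43 CPM (SD, n = 4). Hmgcs1 had the other order, with 32.8 ± 6.00 CPM in pL and 44.5 ± 0.919 CPM in Z cells.
The other lists held more genes called lower than higher: 9 of the 14 other enzymes were called lower in early SC than in SG and 2 higher (median -0.84), as were 6 and 1 of the 10 genes of sterol control (median -0.66) and 7 and 1 of the 10 genes of uptake, storage and export (median -1.21). Mvd, which makes isopentenyl diphosphate, stood at 1.50 CPM against 26.8 CPM in SG (log2 fold change -4.05, SE 0.28) and Srebf2 at 33.3 against 114.8 CPM (-1.74, SE 0.15). Abca1 stood at 5.26 against 44.1 CPM (-3.07, SE 0.22). Insig2 was called higher in early SC, at 107.4 against 48.5 CPM (1.19, SE 0.12).

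From early SC to P SC the genes moved little or in different directions, and the calls of this step changed with the scaling. Cyp51 had 10.4, 6.52, 6.99 and 8.35 CPM in P SC, below its early SC values in each control mouse, and was called lower (log2 fold change -1.31, SE 0.19, adjusted p of edgeR 1.383e-07), where 26.2% of genes were called lower. Sqle (39.6, 45.3, 44.9 and 38.1 CPM) and Fdps (53.8, 39.7, 47.0 and 47.2 CPM) were called higher, by 0.62 (SE 0.14, adjusted p of edgeR 1.292e-04) and 0.97 (SE 0.17, 4.521e-06), where 31.7% of genes were called higher, although both overlapped with early SC in CPM. Hmgcs1, Idi1, Dhcr7 and Lss were not called, with differences of -0.03, 0.17, -0.48 and -0.31. Their median, over all 7 genes, was -0.03, beside -0.01 over all genes. That median over all genes moved to -0.30 under RLE scaling and to -0.49 with total UMIs only, and the fold changes of single genes moved with it. With total UMIs only, Sqle was no longer called (0.11), and Idi1 (-0.34), Hmgcs1 (-0.54), Dhcr7 (-0.98) and Lss (-0.81) were called lower. With free RNA subtracted, Sqle was not called either (0.30, adjusted p of edgeR 0.142), and Hmgcs1 (-0.43), Dhcr7 (-1.77) and Lss (-0.68) were called lower, as were Hmgcs1 (-0.34) and Lss (-0.61) under RLE scaling and with DESeq2. The levels of Cyp51, Sqle, Idi1 and Fdps in P SC were below the range of free RNA in every control mouse. With clusters at a resolution of 1.4, Fdps turned to -0.07, not called, and Dhcr7 was called lower (-1.67).
Of the other synthesis enzymes, 5 were called higher and 5 lower (median -0.08), among them Pmvk (18.5 CPM in P SC against 7.69 CPM in early SC) and, downwards, Nsdhl (1.07 against 9.02 CPM) and Acat2 (5.99 against 23.5 CPM). Of the genes of sterol control, 7 were called lower and 2 higher (median -0.75). Scap, which escorts the SREBP factors out of the ER, stood at 6.37 against 50.1 CPM (log2 fold change -2.52, SE 0.18), and Mbtps2, a protease that releases them, at 2.04 against 24.8 CPM (-3.06, SE 0.26). Of the genes of uptake, storage and export, 5 were called lower and 1 higher (median -0.56), with Npc1 at 0.719 against 11.5 CPM (-3.48, SE 0.29).

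In D SC, Idi1 and Sqle took a larger share of the UMIs than in P SC, and Hmgcs1, Lss, Cyp51 and Dhcr7 a smaller one. Most of these levels did not exceed those within free RNA. In D SC, Idi1 was above the range in 0 of 4 control mice and Sqle in 1 of 4. The other 4 genes lay below it in all 4. This comparison does not tell expression from free RNA, so the values are given as shares of UMIs. Free RNA was estimated to make up 6.76% to 14.3% of the UMIs of D SC in control mice. The calls of Idi1, Sqle, Hmgcs1, Lss, Cyp51 and Dhcr7 at this step were also made with free RNA subtracted. Idi1 had 48.7, 49.4, 48.6 and 53.6 CPM in P SC and 96.8, 99.5, 96.5 and 98.3 CPM in D SC, and Sqle had 62.1, 49.1, 45.4 and 50.1 CPM in D SC. Both were higher in every D SC sum than in any P SC sum. They were called higher, by 1.60 (SE 0.14, adjusted p of edgeR 3.67e-13) and 0.92 (SE 0.13, 7.846e-08), where 38.2% of genes were. Fdps was called as well, by 0.39 (SE 0.17, 0.03762), although its CPM was lower in D SC (38.8 ± 4.73) than in P SC (46.9 ± 5.79). Its call was lost in 7 of 13 alternatives and its sign turned in 4, so no direction is drawn for Fdps at this step.
Hmgcs1 went from 26.8, 28.2, 27.6 and 27.9 CPM to 12.6, 10.9, 11.9 and 10.6 CPM, and was called lower by edgeR (log2 fold change -0.65, SE 0.15, adjusted p 1.665e-04), where 24.9% of genes were. Cyp51 (-0.94, SE 0.25), Dhcr7 (-1.44, SE 0.51) and Lss (-0.89, SE 0.22) were called lower too, with levels in D SC of 2.77 ± 0.892, 0.319 ± 0.149 and 2.98 ± 0.791 CPM. The median of the 7 genes was -0.65, beside 0.26 over all genes, a median that turned to -0.34 with total UMIs only. At an adjusted p under 0.05, all calls of this step but that of Fdps were made in all 13 alternative fits, whereas the study's stricter threshold (adjusted p below 0.01, log2 fold change 1 or more either way) kept 1 of them, that of Idi1.
Among the other enzymes, 4 were called higher and 5 lower (median -0.42). Fdft1, the squalene synthase, stood at 272.6 CPM in D SC and 55.5 CPM in P SC (2.94, SE 0.15), and Mvk was called higher as well. Lbr, which reduces sterols and anchors the lamina, stood at 9.54 against 59.6 CPM (-2.01, SE 0.15), and Msmo1 at 0.877 against 7.003 CPM (-2.11, SE 0.26). Among the genes of sterol control 4 were called higher and 3 lower (median -0.25), with Nr1h3, a receptor for oxysterols, at 10.5 against 3.45 CPM, and among those of uptake, storage and export 2 were called in each direction (median -0.12).

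In round spermatids, Cyp51, Idi1, Sqle and Hmgcs1 were called higher than in P SC and Lss lower. Cyp51 had 85.02, 47.6, 113.8 and 92.6 CPM in RS, Idi1 136.3, 149.5, 139.2 and 165.7 CPM, and Sqle 64.5, 78.7, 61.8 and 81.0 CPM. All of these lay above every P SC value of the same gene. Against P SC, the log2 fold change was 4.02 (SE 0.19, adjusted p of edgeR 2.48e-22) for Cyp51, 2.16 (SE 0.15, 1.971e-17) for Idi1 and 1.38 (SE 0.13, 1.534e-12) for Sqle, where 48.3% of genes were called higher. Hmgcs1 had 35.1, 33.6, 33.1 and 28.9 CPM and was called higher by 0.83 (SE 0.13, 5.559e-07). The call of Hmgcs1 was lost with total UMIs only, with no filter on low counts, and without control 2 (log2 fold change 0.29) or control 4 (0.35), and its levels in RS were within the range of free RNA.
Lss was called lower (2.94, 2.71, 2.61 and 2.38 CPM; log2 fold change -1.11, SE 0.22, adjusted p of edgeR 1.369e-05), where 27.9% of genes were. Fdps (23.1 to 50.5 CPM, 0.34, SE 0.17) and Dhcr7 (0.388 to 1.44 CPM, -0.05, SE 0.40) were not called. Fdps was called higher with DESeq2 (0.66), RLE scaling (0.66), free RNA subtracted (1.08) and clusters at a resolution of 1.4 (0.77), and lower without a filter (-0.38), so no direction is drawn for it. The median of the 7 genes was 0.83, beside 0.61 over all genes, which was 0.93 under RLE scaling and 0.04 with total UMIs only.
The RS sums held 3 clusters, and the genes differed among them. Cyp51 stood at 230.2 ± 35.0 CPM in a cluster of 77 control cells (3 mice), at 78.9 ± 31.7 CPM in the largest cluster by cells and at 65.8 ± 11.3 CPM in the cluster with most of the UMIs. Fdps stood at 136.5 ± 19.8, 35.0 ± 6.77 and 27.8 ± 3.65 CPM in the same order. Idi1 had its highest level in the last of these clusters, 175.7 ± 7.74 CPM, against 100.4 ± 13.4 and 63.3 ± 9.51 CPM. Control 2, with the lowest Cyp51 level in RS, had no cell in the cluster of 77.
Of the other enzymes, 6 were called higher and 7 lower in RS (median 0.13). Fdft1 stood at 235.7 CPM in RS and 55.5 CPM in P SC (2.70, SE 0.15) and Nsdhl at 3.86 against 1.07 CPM (2.52, SE 0.26), while Lbr stood at 7.20 against 59.6 CPM (-2.50, SE 0.15). The genes of sterol control had 4 called higher and 2 lower (median 0.36), with Mbtps2 at 8.16 against 2.04 CPM (2.58, SE 0.26) and Srebf2 at 25.5 against 16.4 CPM (1.24, SE 0.15). Among the genes of uptake, storage and export 2 were called in each direction (median 0.22), with the lipoprotein receptor gene Scarb1 at 20.3 against 6.32 CPM.

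**Figure D3:**
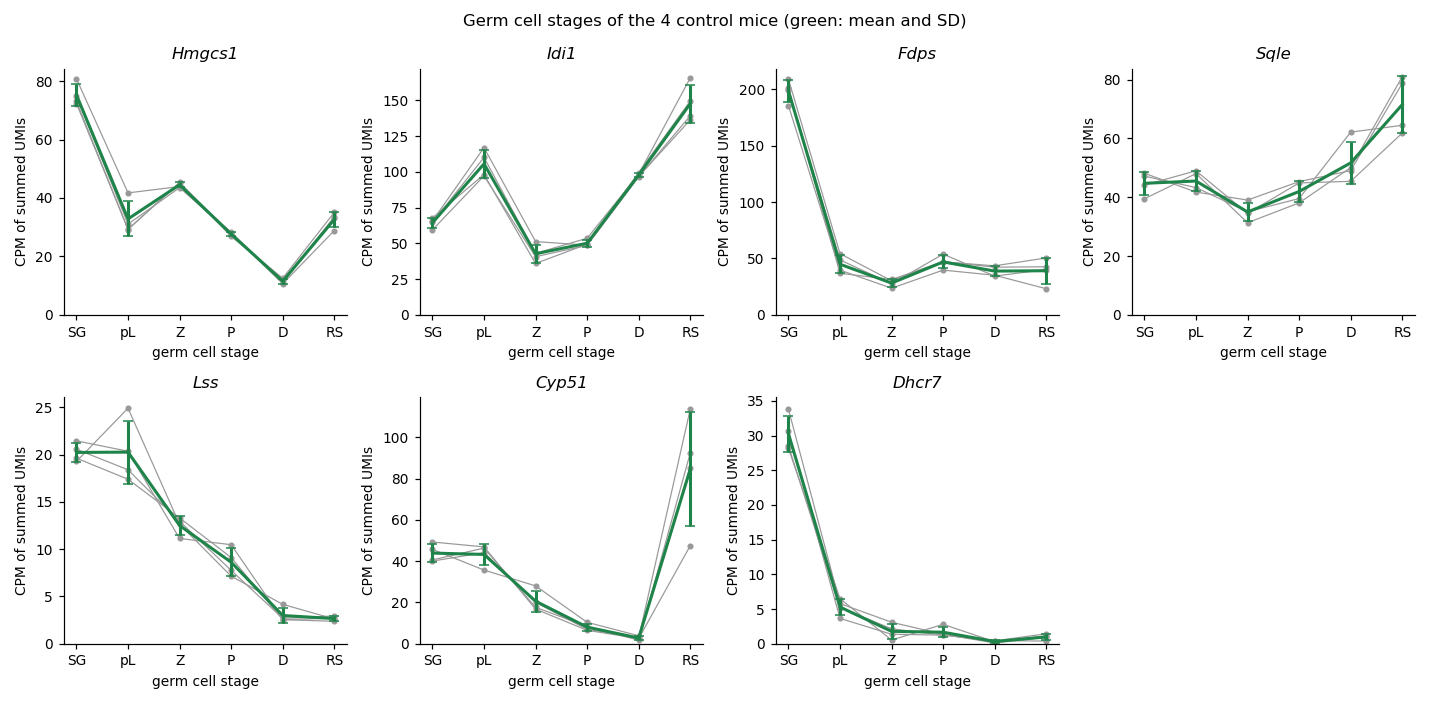
The CPM of summed UMIs (y axis) of each gene is drawn over 6 germ cell stages (x axis), with a grey line for each control mouse and the mean with its SD in green. Fdps and Dhcr7 drop after SG (198.6 and 30.3 CPM), Idi1 climbs to 147.6 CPM in RS after a first high in pL cells, and Cyp51 is near 0 in D SC and at 84.7 CPM in RS.

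Sertoli cells differed from SG in 1 gene against the rest. Hmgcs1 had 82.2, 119.9, 112.2 and 124.3 CPM in the Sertoli cells of control mice 1 to 4 and was called higher than in SG (log2 fold change 0.48, SE 0.13, adjusted p of edgeR 0.001704), where 27.3% of genes were called higher. Fdps had 46.6, 42.8, 41.5 and 49.9 CPM and was called lower (-2.20, SE 0.18, 3.054e-14), and Idi1 (-1.09), Sqle (-1.53), Lss (-1.37), Cyp51 (-0.95) and Dhcr7 (-1.24) were called lower as well, where 35.2% of genes were. None of the 7 genes overlapped between these types. The median of the 7 was -1.24, beside -0.13 over all genes, and all 7 calls were made in the 13 alternative fits at an adjusted p under 0.05. The study's stricter threshold kept 5 of them, without Hmgcs1 and Cyp51.
The Sertoli sums held 3 clusters. In the cluster with most UMIs, Hmgcs1 stood at 132.5 ± 17.97 CPM and Sqle at 11.3 ± 2.81 CPM, and in the cluster with most cells Hmgcs1 stood at 90.6 ± 39.7 CPM and Sqle at 29.2 ± 6.62 CPM. Of the 14 other enzymes, 3 were called higher and 9 lower than in SG (median -0.53), with Ebp, the sterol isomerase, at 133.8 against 7.55 CPM (4.04, SE 0.27) and Lbr at 14.5 against 63.4 CPM (-2.17, SE 0.17). Of the genes of sterol control, 3 were called higher and 5 lower (median -0.55), with Srebf2 at 38.8 against 114.8 CPM (-1.63, SE 0.16). Of those of uptake, storage and export, 4 were called higher and 3 lower (median 0.18). Soat1 stood at 233.2 against 23.7 CPM (3.22, SE 0.15), the lysosomal lipase gene Lipa at 37.2 against 2.43 CPM (3.85, SE 0.31) and Stard4 at 6.14 against 31.8 CPM (-2.39, SE 0.25).

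Across the 43 sums of control mice and cell types, pairs of the 7 genes followed each other to different degrees. On log2(CPM + 1), Pearson's r was 0.921 for Idi1 and Sqle, 0.784 for Dhcr7 and Fdps, 0.769 for Hmgcs1 and Fdps and 0.0939 for Dhcr7 and Idi1. The sums share mice, libraries and depth, so these values are descriptions. Among 16468 genes outside the 4 lists of genes used here, those most like the mean of the 7 standardised genes were Kcnd2 (r = 0.914), Sult1e1 (0.894), Zfp185 (0.886), Pla2g1b (0.880), Oca2 (0.870), Klhdc8a (0.868), Klhl14 (0.860), Srcin1 (0.859), Gm33906 (0.853) and Miox (0.846). Kcnd2, which encodes a potassium channel, stood at 1627 CPM in Leydig cells, 78.3 CPM in SG and 12.6 CPM in Sertoli cells (means of control mice). Within the lists, Sc5d (0.803) was the most like them and Insig2 (-0.28) the least.

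The genotypes were compared within each cell type. Over these comparisons, 4.30% to 39.3% of all genes tested had an unadjusted p under 0.05 with edgeR, against which such counts of the 7 genes are to be read. In Leydig cells, the levels of each cKO group overlapped with those of the control mice for all 7 genes, where the groups did not overlap for 14.3% (NELF-B cKO) and 18.1% (TDP-43 cKO) of genes. Hmgcs1 stood at 528.1 and 572.2 CPM in the 2 NELF-B cKO mice and at 623.7, 590.3 and 538.4 CPM in the 3 TDP-43 cKO mice. Fdps stood at 560.1 and 672.8 CPM, and at 642.3, 624.1 and 653.7 CPM. Neither gene separated a cKO group from the control mice.
Idi1 had 169.4 and 237.6 CPM in NELF-B cKO and 227.3, 216.5 and 185.7 CPM in TDP-43 cKO Leydig cells, and Sqle had 121.4 and 134.8 CPM, and 130.2, 113.7 and 120.3 CPM. Lss had 51.5 and 46.0 CPM, and 41.5, 35.1 and 40.6 CPM. All 3 genes overlapped with control.
Cyp51 had 258.5 and 299.5 CPM in NELF-B cKO and 283.1, 226.2 and 253.3 CPM in TDP-43 cKO Leydig cells, and Dhcr7 had 105.2 and 96.0 CPM, and 95.6, 61.9 and 95.9 CPM, which overlapped with control as well.
None of the 7 genes was called in Leydig cells of either cKO (0 of 7, and 0 of 7 at an unadjusted p under 0.05, with both edgeR and DESeq2), where edgeR called 0% of 13497 genes in each comparison. For all genes, 1205 and 2542 had an unadjusted p under 0.05 with edgeR, and DESeq2 called 27 and 1134. The log2 fold changes of the 7 genes ran from 0.01 to 0.25 in NELF-B cKO (median 0.14, beside 0.01 over all genes) and from -0.11 to 0.12 in TDP-43 cKO (median 0.06, beside 0.04). The 95% interval of the difference was -0.45 to 0.46 for Hmgcs1 and -0.08 to 0.57 for Cyp51 in NELF-B cKO, and -0.32 to 0.49 and -0.19 to 0.39 in TDP-43 cKO. Differences within these bounds are thus not excluded, and the bounds are not limits of detection. Leydig cells made up 1.67% to 6.98% of the named cells in control mice, 11.9% and 30.8% in NELF-B cKO mice and 21.5%, 4.34% and 5.46% in TDP-43 cKO mice, germ cells that were left out of the cKO sums included. By this share, TDP-43 cKO mice 2 and 3 were within the control range. Named cells were 27.3% to 60.3% of the barcodes past the filter in control mice. They were 63.4% and 96.8% in NELF-B cKO mice and 94.6% to 99.5% in TDP-43 cKO mice. The shares thus have unlike bases, and no change in the number of Leydig cells is read from them. The sum of the 6 Leydig markers was 7138 to 9280 CPM in NELF-B cKO and 5218 to 6270 CPM in TDP-43 cKO Leydig cells.

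**Figure D4:**
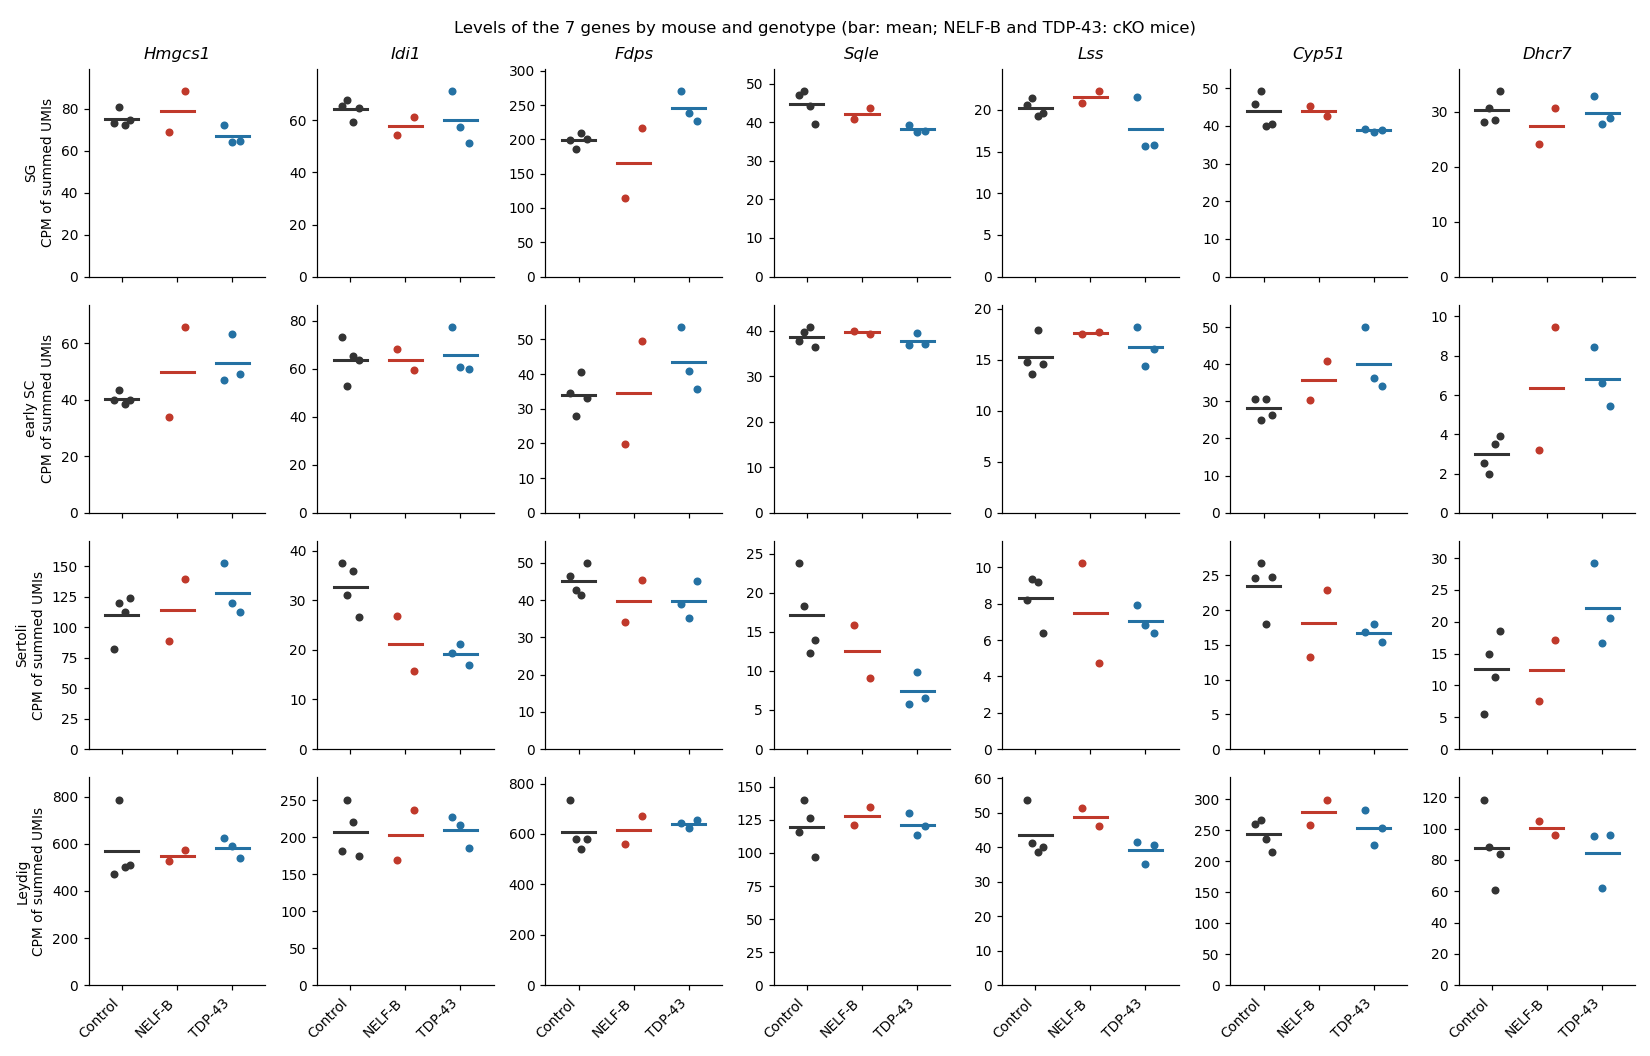
Points are mice and bars are group means of the CPM of summed UMIs (y axis from 0 in each panel), for 7 genes in columns and 4 cell types in rows, with control, NELF-B cKO and TDP-43 cKO on the x axis. The genotypes overlap for all 7 genes in Leydig cells, whereas in Sertoli cells the TDP-43 cKO points of Sqle (5.82 to 9.85 CPM) lie below those of control mice (12.3 to 23.8 CPM).

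In SG and early SC together, the sum the study tested, none of the 7 genes was called in NELF-B cKO, where 0.0407% of genes were, or in TDP-43 cKO, where 4.03% were. With edgeR, 0 of 7 had an unadjusted p under 0.05 in either comparison (17.7% and 28.9% of all genes had), and DESeq2 called 0 of 7 in both. Fdps stood at 203.7, 171.3 and 161.1 CPM in the 3 TDP-43 cKO mice and at 124.1 to 153.4 CPM in control mice, which did not overlap (nor did 33% of all genes tested; of the 7 genes, only Fdps), with a difference of 0.41 (SE 0.20, adjusted p of edgeR 0.2184). In NELF-B cKO, 2 of 7 genes did not overlap with control, Idi1 below (58.1 and 60.8 CPM against 61.3 to 67.7 CPM) and Lss above (19.96 and 20.8 CPM against 17.3 to 18.9 CPM), where 25.8% of all genes tested did not overlap. The medians of the 7 genes were 0.03 and 0.05, beside -0.02 and 0.01 over all genes. Of the other lists, Acat2, which makes acetoacetyl-CoA, was called higher in TDP-43 cKO (41.3 against 27.9 CPM; 0.61, SE 0.11, adjusted p of edgeR 0.0399) and Insig2 lower (51.6 against 70.3 CPM; -0.40, SE 0.09, 0.0482).
In SG alone, 0 of 7 were called in NELF-B cKO (0.00542% of genes were) and 0 of 7 in TDP-43 cKO (0.0108%). In both, 0 had an unadjusted p under 0.05 by edgeR (10.5% and 23.3% of all genes had) and DESeq2 called 0. Fdps had 114.2 and 216.7 CPM in NELF-B cKO SG and 270.9, 239.3 and 226.6 CPM in TDP-43 cKO SG, against 185.5 to 209 CPM in control SG. The NELF-B cKO mice lay on both sides of the control mice and the TDP-43 cKO mice above them. In TDP-43 cKO, 3 of 7 genes did not overlap with control, Fdps above and Sqle and Cyp51 below, where 28.9% of all genes tested did not overlap. The difference of Fdps was 0.39 on the log2 scale (SE 0.19, adjusted p of edgeR 0.254). An SG cluster with less Fdps (104 ± 18.1 CPM in control mice, against 222.1 ± 22.4 and 250.3 ± 27.8 CPM in the other 2 SG clusters) held 12.6% to 40.5% of the SG UMIs in control mice and 26.2% in NELF-B cKO 1, but 0.841% in NELF-B cKO 2 and 1.86% to 4.86% in TDP-43 cKO mice. Without that cluster the TDP-43 cKO difference of Fdps was 0.12 (SE 0.15). In NELF-B cKO, Fdps was called lower without NELF-B cKO 2 (-0.81, SE 0.14, adjusted p of edgeR 0.0328), which leaves 1 NELF-B cKO mouse, assumed to vary like the others.

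In early SC, the values depended on how the cells were clustered. With the clusters used throughout, Cyp51, Dhcr7 and Hmgcs1 stood higher in the TDP-43 cKO mice than in any control mouse, 3 of 7 genes where the groups did not overlap for 42.4% of genes. Cyp51 had 50.0, 36.2 and 34.1 CPM in TDP-43 cKO mice 1 to 3, against 25.0 to 30.6 CPM in control mice, and 30.4 and 40.9 CPM in NELF-B cKO mice. Dhcr7 had 8.46, 6.59 and 5.46 CPM, against 1.99 to 3.92 CPM, and 3.22 and 9.46 CPM in NELF-B cKO mice. Hmgcs1 had 46.9, 63.2 and 49.0 CPM, against 38.4 to 43.3 CPM, and 34.0 and 65.7 CPM in NELF-B cKO mice. In NELF-B cKO, the first mouse lay near the controls or below them and the second above them, for all 3 genes.
In TDP-43 cKO, 1 of 7 was called, where 23.6% of genes were, a share that is above that of the 7 genes. The called gene was Cyp51 (log2 fold change 0.57, SE 0.18, adjusted p of edgeR 0.0434), while Dhcr7 (1.22, SE 0.42, 0.0553) and Hmgcs1 (0.44, SE 0.20, 0.134) were not called. The median of the 7 was 0.41, beside 0.05 over all genes. With clusters at a resolution of 1.4, Dhcr7 turned to -0.18 and Fdps from 0.41 to -0.17, Cyp51 differed by 0.31 and Hmgcs1 by 0.13, none of them called, and the median of the 7 was 0.09, so no direction is drawn for Dhcr7 or Fdps here. Dhcr7 turned in NELF-B cKO early SC too, from 1.03 to -0.12, not called in either. The call of Cyp51 was made in 2 of 19 alternatives, with adjusted p-values from 0.0425 to 0.988, and DESeq2 called 0 of 7. The 2 cKO groups also differed from control in the make-up of the sum: Z cells gave 56.6% to 72.8% of early SC UMIs in control mice, but 13.9% to 44.1% in TDP-43 cKO mice and 28.5% and 34.3% in NELF-B cKO mice. The pL cells of control mice and of NELF-B cKO 1 lay mostly in 1 cluster and those of NELF-B cKO 2 and the TDP-43 cKO mice in another. In Z cells alone, Cyp51 differed by 0.04 (SE 0.28, adjusted p of edgeR 0.947) and Hmgcs1 by 0.46 (SE 0.16, 0.0723), and Dhcr7 had too few UMIs to be tested. Free RNA held 154.6, 69.8 and 77.1 CPM of Hmgcs1 and 49.7, 16.3 and 8.35 CPM of Dhcr7 in TDP-43 cKO mice 1 to 3, against 27.6 to 39.7 and 2.61 to 7.69 CPM in control mice. With free RNA subtracted, the differences were 0.51 (SE 0.16, adjusted p of edgeR 0.0586) for Cyp51, 1.00 (SE 0.51, 0.205) for Dhcr7 and 0.26 (SE 0.19, 0.382) for Hmgcs1. In NELF-B cKO, 0 of 7 were called by edgeR, where 9.57% of genes were, with 1 of 7 at an unadjusted p under 0.05 (28.3% of all genes) and 0 called by DESeq2. Without NELF-B cKO 1, Dhcr7 (1.57, SE 0.42, adjusted p of edgeR 0.0364) and Hmgcs1 (0.63, SE 0.18, 0.0452) were called higher, with the remaining mouse assumed to vary like the others.
Of the 14 other enzymes, 4 were called higher and 0 lower in TDP-43 cKO early SC and 2 higher and 0 lower in NELF-B cKO early SC. Of all genes, 23.6% and 9.57% were called in either direction there. The counts of these enzymes and of the other lists are to be read against those shares. Acat2 stood at 47.3 CPM in TDP-43 cKO against 23.5 CPM in control early SC (1.07, SE 0.17, adjusted p of edgeR 0.00683) and Nsdhl at 16.8 against 9.02 CPM (0.96, SE 0.23). Among the genes of uptake, storage and export, of which 9 could be tested, 4 were called higher in TDP-43 cKO, with Abca1 (10.8 against 5.26 CPM), Scarb1 (28.5 against 14.6 CPM) and Stard4 (20.0 against 10.1 CPM) among them, and 1, Abca1, in NELF-B cKO (12.95 CPM). Among the genes of sterol control, Insig2 was called lower in TDP-43 cKO and in NELF-B cKO (64.5 against 107.4 CPM; -0.77, SE 0.15), and Mbtps1 and Mbtps2 were called higher in NELF-B cKO. The part of the make-up of the sums and of free RNA in these values was not tested.

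In Sertoli cells, the TDP-43 cKO mice had lower levels of Sqle and Idi1 than any control mouse. Sqle had 5.82, 9.85 and 6.52 CPM in TDP-43 cKO mice 1 to 3 and 23.8, 18.3, 12.3 and 14 CPM in control mice 1 to 4, with 15.9 and 9.07 CPM in NELF-B cKO mice. Idi1 had 19.4, 21.1 and 16.9 CPM in TDP-43 cKO, 26.9 and 15.7 CPM in NELF-B cKO, and 37.5, 31.1, 35.9 and 26.7 CPM in control mice. The TDP-43 cKO and control values of both genes were apart, as were those of 38.4% of all genes tested.
The differences in TDP-43 cKO were -1.18 (SE 0.32, adjusted p of edgeR 0.0589) for Sqle and -0.75 (SE 0.22, 0.0651) for Idi1, so 0 of 7 were called, where 1.6% of genes were. With edgeR 2 of 7 had an unadjusted p under 0.05, where 32.3% of all genes had, and DESeq2 called both of them, with adjusted p-values of 0.009565 and 0.0192, where it called 21.7% of genes. In NELF-B cKO Sertoli cells 0 of 7 were called (0% of genes were), with 1 at an unadjusted p under 0.05 by edgeR (12.1% of all genes) and 0 called by DESeq2. The medians of the 7 were -0.16 in NELF-B cKO and -0.21 in TDP-43 cKO, beside 0.00 over all genes in both. The Sertoli cluster with less Sqle held 48.9% to 77.4% of the Sertoli UMIs in control mice and 87.0% to 95.1% in TDP-43 cKO mice. Within that cluster alone the differences were -0.60 (SE 0.32) for Sqle and -0.32 (SE 0.17) for Idi1, with adjusted p-values of edgeR of 0.321 and 0.328. The free RNA barcodes also held less Sqle in TDP-43 cKO (36.6 ± 6.77 CPM, n = 3) than in control mice (50.8 ± 2.63 CPM, n = 4), and with free RNA subtracted both genes were called lower, with differences of -2.47 (adjusted p of edgeR 0.0139) for Sqle and -0.96 (0.0269) for Idi1. Free RNA was estimated at 9.12%, 18.2% and 18.7% of the Sertoli UMIs of TDP-43 cKO mice 1 to 3. It held 34.9, 44.0 and 30.8 CPM of Sqle there. Most of the Sqle in these sums was thus subtracted, and the difference of -2.47 rests on small remainders. Abcg1, a sterol exporter, was the gene of the other lists called in TDP-43 cKO Sertoli cells (13.5 against 3.00 CPM; 2.12, SE 0.31, adjusted p of edgeR 0.0376).

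The remaining cell types were sparser. In P SC, where 2 NELF-B cKO mice but only 1 TDP-43 cKO mouse had at least 10 cells, Sqle had 56.6 and 54.0 CPM against 38.1 to 45.3 CPM in control mice, and Fdps had 33.7 and 36.1 CPM against 39.7 to 53.8 CPM. Neither was called (0.39, SE 0.14 and -0.44, SE 0.16), and 0 of 7 were, with 2 at an unadjusted p under 0.05 by edgeR (8.52% of all genes) and 0 called by DESeq2, where 0.0137% of genes were called. In RS, where TDP-43 cKO mice 2 and 3 had at least 10 cells, Fdps had 19.4 and 19.2 CPM against 23.1 to 50.5 CPM, and Cyp51 63.0 and 66.3 CPM against 47.6 to 113.8 CPM. Of the 6 genes tested 0 were called, with 2 at an unadjusted p under 0.05 by edgeR (20.9% of all genes) and 0 called by DESeq2, where 0% of genes were called. Fdps was called lower there without control 2 (-1.46, SE 0.36, adjusted p of edgeR 0.0175).
In interstitial cells 0 of 7 were called in NELF-B cKO and in TDP-43 cKO, where 0% of genes were called in both. At an unadjusted p under 0.05 by edgeR there were 0 and 1 (4.30% and 18.2% of all genes), and DESeq2 called 0. Fdps had 125.0, 123.8 and 83.9 CPM in TDP-43 cKO interstitial cells and 37.5 to 97.1 CPM in control ones (0.76, SE 0.28). In myoid cells, the contractile cells of the tubule wall, 2 genes could be tested in TDP-43 cKO and 0 were called, where 1.98% of genes were. DESeq2 called 0, and 1 had an unadjusted p under 0.05 by edgeR (9.49% of all genes). The gene was Hmgcs1, with 129.7, 55.7 and 55.6 CPM against 30.6, 29.3, 5.16 and 25.5 CPM (1.98, SE 0.52, adjusted p of edgeR 0.083), in sums of few cells. The Leydig marker Cyp17a1 reached 343.5 CPM in myoid sums. Without possible mixtures, Hmgcs1 differed by 1.37 (SE 0.46), and Fdps turned from 0.94 (SE 0.61) to -0.81 (SE 0.48). The part of Leydig RNA in these values was not tested.
In endothelial cells 2 genes could be tested, with 0 called by either tool, 0 at an unadjusted p under 0.05 and 0% of genes called in both cKO groups. In macrophages 5 could be tested, and 0 were called in NELF-B cKO (0% of genes were) and in TDP-43 cKO (2.14% were). At an unadjusted p under 0.05 by edgeR there were 0 and 1 (8.14% and 16.6% of all genes). DESeq2 called 0 in TDP-43 cKO and gave no adjusted p for the 5 genes in NELF-B cKO. The 1 gene was Idi1, with 17.2, 21.1 and 9.49 CPM against 21.4 to 43.4 CPM (-0.91, SE 0.37).

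**Figure D5:**
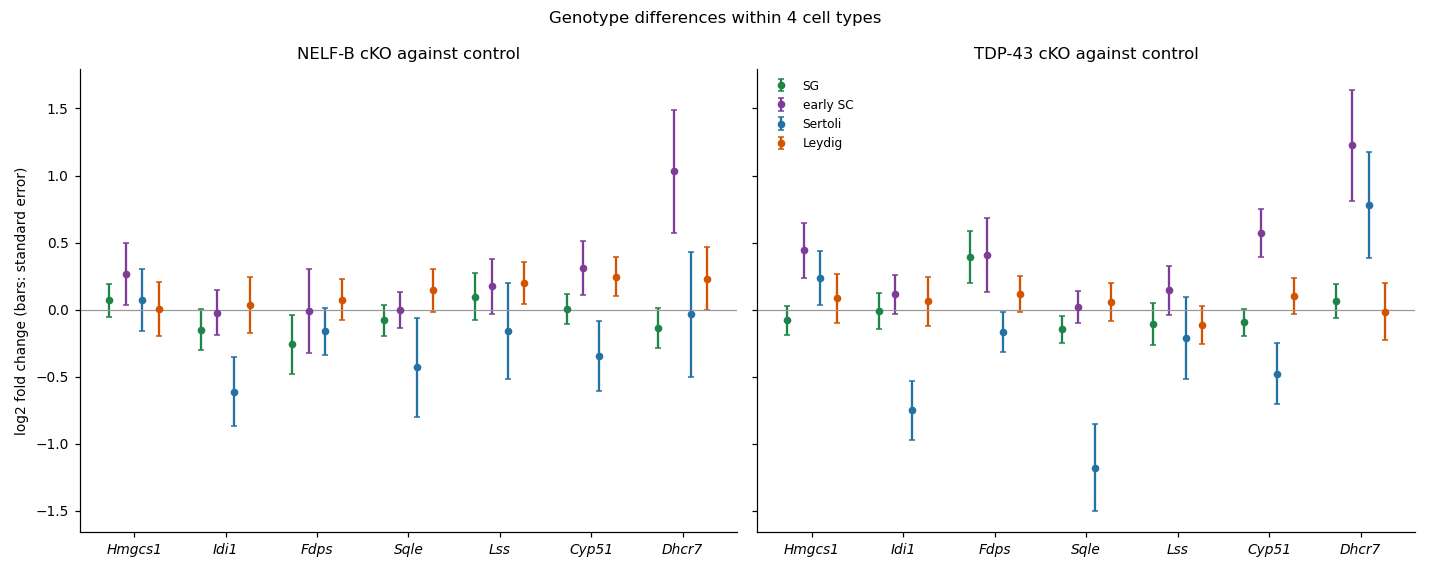
The log2 fold change against control (y axis, bars of 1 SE) is drawn for each of the 7 genes (x axis) in SG, early SC, Sertoli and Leydig cells, for NELF-B cKO on the left and TDP-43 cKO on the right. The Leydig points stay between -0.11 and 0.25, and the widest departures are Dhcr7 in early SC (1.22, which turned to -0.18 with clusters at a resolution of 1.4) and Sqle in Sertoli cells (-1.18) of TDP-43 cKO mice.

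Whether a genotype effect differed between Leydig cells and another type was tested as an interaction. For NELF-B cKO, the effect in Leydig cells minus that in SG was 0.30 to 0.74 for the 7 genes (median 0.55, beside 0.29 over all genes), and 0 of 7 were called by edgeR, where 0.592% of genes were, with 5 of 7 at an unadjusted p under 0.05, as 15.5% of all genes were. The largest of the 7 by test was Fdps (0.73, SE 0.18, adjusted p of edgeR 0.0801). Under RLE scaling the 7 genes ran from -0.01 (Hmgcs1) to 0.43 (Dhcr7) and the median over all genes was -0.02, so the shift shared by all genes depends on the scaling between cell types. For TDP-43 cKO the same differences were -0.01 to 0.47 (median 0.35, beside 0.25), with 0 of 7 called, 3 at an unadjusted p under 0.05 (17.4% of all genes) and 0.0721% of genes called. DESeq2 was not run on these interactions.
Against Sertoli cells, the NELF-B cKO differences were -0.19 to 0.49 (median 0.32, beside -0.17 over all genes), with 0 of 7 called by edgeR, 0 at an unadjusted p under 0.05 and 0% of genes called. The TDP-43 cKO differences were -0.98 for Dhcr7 to 1.01 for Sqle (median 0.05, beside -0.25), with 0 of 7 called, 3 at an unadjusted p under 0.05 (21.5% of all genes) and 3.44% of genes called. The difference of Sqle had an SE of 0.27 and an adjusted p of edgeR of 0.0616. Of the other lists, Msmo1 was called in the NELF-B cKO comparison with SG (0.87, SE 0.17, adjusted p of edgeR 0.0346) and Soat1 in the TDP-43 cKO comparison with Sertoli cells (-1.33, SE 0.18, 0.00563).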

How the data were processed

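Single cell RNA-seq (10x Genomics 3′ chemistry, counted by UMI) was done on whole testes at PND24. The submitters' processing notes name the build mm10 and the tools Cell Ranger 6.1.1 and 7.0.0, Seurat 4.2.0 and DESeq2 1.36, with no role or order. The deposited tables hold raw UMI counts per gene and barcode, not normalized.

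A barcode passed with more than 1000 genes and less than 10% of its UMIs mitochondrial, and a gene with UMIs in more than 15 such barcodes. Cells were clustered with scanpy 1.11.5 and leidenalg 0.10.2 (40 principal components, 20 neighbours, resolution 0.8, 2996 variable genes, 4 genes of the lists taken out). A cluster was named where at least 3 fixed markers were at least 2-fold higher, its median was at least 2000 UMIs and at most 80% of it came from 1 mouse, which left 8 clusters (18325 barcodes) unnamed. Among these was a cluster of 1082 barcodes with a median of 88280 UMIs, nearest to D SC, with 2 of 4 markers raised. It was counted in no SC sum, so the steps from P SC to D SC and RS lack it. Scrublet marked 0.351% of named cells as doublets and was taken not to have worked, so possible mixtures were left out as an alternative. No cell was removed as a doublet.

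For each mouse, UMI counts were added up over the cells of a type and tested with edgeR 4.0.16 (R 4.3.3; TMM, filterByExpr, quasi-likelihood) over all genes, with all cell types of the control mice in 1 fit and the mouse as a term for cell types, and with the groups of 1 cell type for genotypes. DESeq2 1.42.0, RLE scaling, total UMIs only, no filter, free RNA subtracted, clusters at a resolution of 1.4, cells with at least 2000 UMIs, the study's threshold, germ cells left out by other rules, the replicate number as a block and each mouse left out were the alternatives. A further 4, among them possible mixtures and clusters of uneven share left out, were chosen after seeing the data. Sums of under 10 cells were not used. Germ cells of cKO mice in which the targeted gene had any UMI were dropped. On simulated counts, 49.5% (NELF-B cKO) and 40.4% (TDP-43 cKO) of genes changed by a log2 fold of 1 in Leydig cells were recovered, and 87.4% and 85.1% of those changed by 2. Replicates were separate mice. The 95% intervals are those of the fitted differences. The 7 genes were named in every comparison, with at most 6 genes of the other lists by lowest adjusted p and the 10 genes most like the 7. A few genes of these lists are counted but neither plotted nor named here. The genes and lists were chosen with earlier results of these data known. Whether mice with the same number deviate together was checked by correlations of deviations from the group means. They ran from -0.57 to 0.31 in SG and early SC, -0.55 to 0.21 in Leydig cells and -0.77 to 0.35 in Sertoli cells. The numbers were not taken as pairs. The deviations of the 2 NELF-B cKO mice mirror each other, so the check cannot exclude a pairing.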

Additional observations from a re-analysis of the deposited data

Results flagged for a closer look

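In 5 of the 70 sets of 4 control values, where chance flags about 1 in 20, 1 mouse stood apart from the other mice. Hmgcs1 in Leydig cells was 788 CPM in control 2, against 473 to 509.7 CPM in the other control mice. Idi1 in P SC was 53.6 CPM in control 4, against 48.6 to 49.4 CPM in the others, and Idi1 in myoid cells was 58.7 CPM in control 2, on 6 UMIs from 11 cells. Dhcr7 in P SC was 2.79 CPM in control 1, on 18 UMIs, and Lss in D SC was 4.17 CPM in control 3.

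The barcodes with 1 to 100 UMIs, which were counted in no cell and taken as free RNA, carried more of some of the genes in every cKO mouse than in any control mouse. Hmgcs1 was at 47.7 and 161.8 CPM in NELF-B cKO mice 1 and 2 (mean 105 CPM) and at 154.6, 69.8 and 77.1 CPM in TDP-43 cKO mice 1 to 3 (mean 100.5 CPM), against 27.6 to 39.7 CPM in control mice. Fdps was at 91.6 and 243.6 CPM (mean 167.6 CPM) and at 271.5, 90.8 and 92.5 CPM (mean 151.6 CPM), against 63.5 to 68.0 CPM. Dhcr7 was at 9.99 and 29.9 CPM (mean 19.9 CPM) and at 49.7, 16.3 and 8.35 CPM (mean 24.8 CPM), against 2.61 to 7.69 CPM. The means rest on NELF-B cKO 2 and TDP-43 cKO 1: without TDP-43 cKO 1, those of the TDP-43 cKO mice were 73.4 CPM for Hmgcs1, 91.6 CPM for Fdps and 12.3 CPM for Dhcr7. Lss averaged 14.7 CPM in TDP-43 cKO mice, against 5.52 to 9.93 CPM. Sqle went the other way and was lower in every cKO mouse than in any control mouse, with 42.3 and 36.6 CPM against 47.5 to 53.7 CPM. Leydig cells made up 11.9% and 30.8% of the named cells in NELF-B cKO mice 1 and 2 and 21.5%, 4.34% and 5.46% in TDP-43 cKO mice 1 to 3, against 1.67% to 6.98% in control mice. The part of the Leydig shares in the values of these barcodes was not tested. Named cells were 27.3% to 60.3% of the barcodes past the filter in control mice and 63.4% to 99.5% in cKO mice. The Leydig shares thus have unlike bases.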

How the results depend on the processing

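With mice left out aside, 73 alternative counts of called genes between cell types stayed within 1.5 times the count given and 7 did not, 197 and 16 between genotypes, and 7 and 1 for interactions. With the study's stricter threshold (adjusted p below 0.01, log2 fold change 1 or more either way), 2 genes were called in early SC against SG, 1 in P SC against early SC, 1 in D SC against P SC and 0 in TDP-43 cKO early SC. The study used it for shrunken fold changes between genotypes, and here it was put on edgeR's fold changes. In P SC against early SC, the count was 5 under RLE scaling, 6 with total UMIs only, 5 with DESeq2 and 5 with free RNA subtracted. In TDP-43 cKO early SC, the count of 1 became 0 under RLE scaling, total UMIs only, no filter, DESeq2, free RNA subtracted, clusters at a resolution of 1.4, without clusters of uneven share, with no germ cell left out, with germ cells left out of control mice too, and without each mouse in turn (0 to 0). In TDP-43 cKO Sertoli cells the count of 0 became 2 with DESeq2, 2 with free RNA subtracted (Sqle and Idi1 in both) and 1 at a resolution of 1.4 (Sqle), and without a filter it became 1 in TDP-43 cKO interstitial cells (Fdps) and 1 in myoid cells (Hmgcs1). With free RNA subtracted it became 1 for the TDP-43 cKO effect in Leydig minus Sertoli cells (Sqle). Little Sqle was left in the TDP-43 cKO Sertoli sums after that step. The count ran from 0 to 1 when each mouse was left out in NELF-B cKO SG, TDP-43 cKO RS, the NELF-B cKO effect in Leydig cells minus SG and minus Sertoli cells, and the TDP-43 cKO effect in Leydig minus Sertoli cells, and from 0 to 2 in NELF-B cKO early SC. Among values called by the fit given or by the alternative, the sign of Fdps turned in P SC against early SC (-0.071 at a resolution of 1.4), in D SC against P SC (-0.25 with total UMIs only, -0.12 without a filter, -0.085 without control 4 and -0.075 without control 2, in a range of -0.085 to 0.42 over the mice left out) and in RS against P SC (-0.38 without a filter), and that of Idi1 in P SC against early SC (-0.34 with total UMIs only). Values called in neither also turned, such as Fdps in RS against P SC (-0.27 with total UMIs only, -0.12 without possible mixtures) and Idi1 in P SC against early SC (-0.14 under RLE scaling and with DESeq2, -0.20 at a resolution of 1.4, -0.36 with free RNA subtracted), and, between genotypes at a resolution of 1.4, Dhcr7 in early SC (1.22 to -0.18 in TDP-43 cKO, 1.03 to -0.12 in NELF-B cKO) and Fdps in TDP-43 cKO early SC (0.41 to -0.17). With free RNA subtracted, called values grew by over 1.5 times as folds for Cyp51 in P SC against early SC (-2.64), Cyp51 (-1.53), Dhcr7 (-4.40) and Idi1 (2.32) in D SC against P SC, and Cyp51 (5.88), Idi1 (3.24), Sqle (2.21) and Hmgcs1 (1.61) in RS against P SC. These values rest on the free RNA estimate from the Leydig markers, Star among them. Without a filter, values in RS against P SC were 3.30 for Cyp51, 1.45 for Idi1, 0.67 for Sqle and -1.82 for Lss. The causes were not tested.

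With the replicate number as a block, 0 genes were called in TDP-43 cKO early SC (Cyp51), and no other genotype count moved by over 1.5 times. The numbers were not taken as pairs, and the check of deviations cannot exclude a pairing. Depth limits Dhcr7 in P SC and all 7 genes in myoid cells, where sums hold few UMIs of them. The values of Leydig cells in the cKO mice rest on 2 and 3 mice. The median log2 fold change of all genes moved from -0.01 to -0.30 (RLE) and -0.49 (total UMIs only) in P SC against early SC, and from 0.61 to 0.93 and 0.04 in RS against P SC.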
